A study of Mus musculus with 6 samples.

Results

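Laminins are the cross-shaped proteins on which basement membranes are built, and the 10 genes described here encode laminin chains and the glycoproteins bound to them. They are Lama1, Lama5, Lamb1, Lamb2, Lamc1, Sparc, Nid1, Nid2, Hspg2 and Dag1, out of 19938 genes measured by a probe set with exactly 1 gene symbol. The genes were chosen by name, with their partners, after the increase of Lama1 and Sparc in these same arrays was known, so every difference between the groups below is a description of these arrays and is not independent evidence about the family. Each of the 10 genes had 1 such probe set, so the rule of keeping the one with the highest mean over 6 arrays decided nothing, and all 10 passed the only filter tried on dim genes, a mean level above the median gene.

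Mouse embryonic stem (ES) cells were compared on 3 arrays of Satb1-/- cells and 3 arrays of wild-type (WT) cells. Satb1 encodes a chromatin-organising DNA-binding protein, which is knocked out in the Satb1-/- cells, per the labels. All cells, in both groups, carried a hygromycin resistance and thymidine kinase reporter in the Oct4 locus and were kept under hygromycin for 3 days with LIF, in medium with 15% serum, on irradiated feeder cells, most of which were removed by settling before RNA was taken. The Satb1-/- arrays are labelled as clones 1-1, 1-2 and 2-1 and the WT arrays as 1, 2 and 3; no label says if separate cultures were used within a group, so the spread between arrays may be partly technical.

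A laminin is assembled in the cell from 1 alpha, 1 beta and 1 gamma chain. The chains of Lama1, Lamb1 and Lamc1 form the laminin of the earliest basement membranes of the mouse embryo, and replacing the alpha chain by that of Lama5 gives the laminin that is also made by ES cells and the epiblast. Beta and gamma chains can pair in the cell before an alpha chain joins, and the alpha chain is needed for the trimer to be secreted. Outside the cell, nidogens bind the gamma chain, perlecan and SPARC bind other matrix proteins, and dystroglycan holds the alpha chain at the cell surface.

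Expression is given as the deposited log2 value of each array, in which 1 unit is a doubling of signal. Differences are Satb1-/- minus WT on that scale, with the standard error (SE) or the 95% interval from limma fitted to all 19938 genes. A gene was counted as called when its Benjamini-Hochberg adjusted p, taken over every gene, was under 0.05. Array medians lay between 4.69 and 4.85, and arrays give no read depth: their number limits the precision. Satb1 itself read 4.38, 4.47 and 4.57 in Satb1-/- arrays 1-1, 1-2 and 2-1, against 5.12, 4.99 and 5.31 in WT arrays 1, 2 and 3 (difference -0.67, SE 0.12). WT array 3 stood apart on the second principal component (29.4% of variance, score 29.3, the other 5 arrays between -13.1 and -0.51), so results are also given without it. On the first component (36.2% of variance) WT array 1 lay furthest out, at -26.7. There WT arrays 2 and 3 lay at -10.6 and -3.69, and the Satb1-/- arrays between 12.7 and 15.5. Weights that limma estimates for each array were lowest for WT arrays 3 (0.45) and 1 (0.46). Results without WT array 1 are given for some genes. In bulk RNA, fewer cells of a type and less RNA per cell cannot be told apart.

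Across the family, Lama1 rose, with a larger difference than the chains it is assembled with, and Sparc rose by less. Of the 10 genes, 8 had a difference above 0, where 48.5% of all genes did. With each array centred on its median 9 did, a setting for which the share of all genes was not computed. By limma, 2 of the 10 genes were called higher (0.923% of all genes) and 0 lower (0.476% of all genes); in either direction 1.40% of all genes were called. At an unadjusted p under 0.05, 5 of the 10 had a positive difference and 0 a negative one, where 5.92% of all genes were higher and 4.55% lower. These shares of all genes also apply to the counts of the lists below. In 5 genes all 3 Satb1-/- arrays lay above all 3 WT arrays, which held for 8.18% of all genes, and in 0 genes did they lie below, which held for 6.97%. The median difference of the 10 genes was 0.37, or 0.35 without Lama1, against -0.00 over all genes. Without WT array 3 the median was 0.37 and the same number, 2, was called. The median was 0.26 without Satb1-/- array 1-2, 0.27 without WT array 1, 0.53 without WT array 2 and 0.25 with array weights. Markers of feeder fibroblasts, which also make these proteins, had a median difference of 0.18 over 18 genes, with 0 called by limma (3 higher and 0 lower at an unadjusted p under 0.05); their part in the values of the family was not tested.

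**Figure D1:**
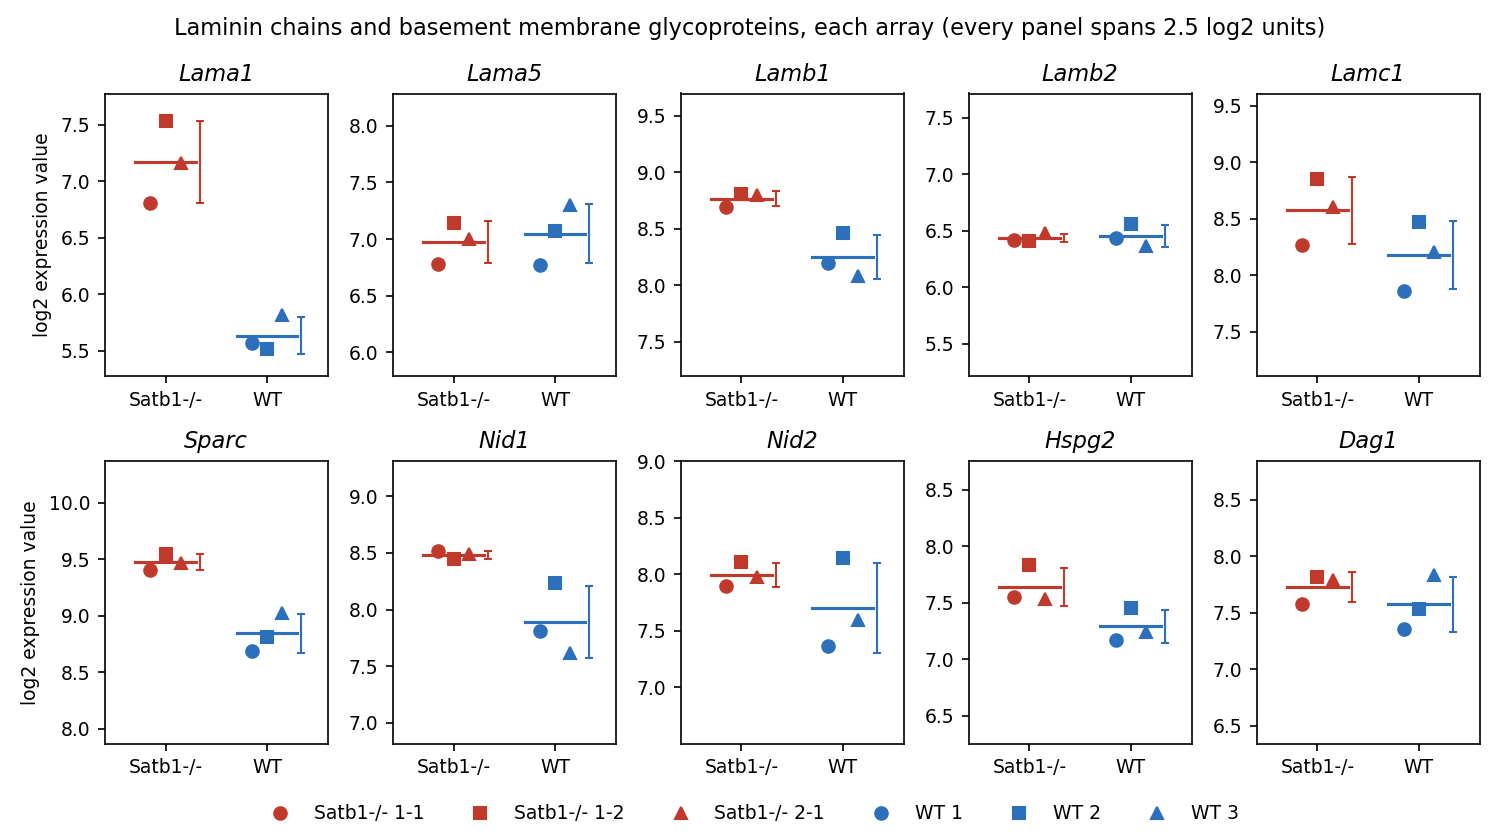
Log2 expression value (y axis) of the 10 genes in each array, Satb1-/- on the left and WT on the right of each panel; points are arrays, horizontal lines group means and bars 1 SD (n = 3 each). The 3 Satb1-/- points lie above all WT points for Lama1, Lamb1, Sparc, Nid1 and Hspg2, and the groups overlap for Lama5, Lamb2, Lamc1, Nid2 and Dag1.

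Lama1, the alpha chain of early embryonic laminin, read 6.81, 7.53 and 7.16 in Satb1-/- arrays 1-1, 1-2 and 2-1, against 5.57, 5.52 and 5.82 in WT arrays 1, 2 and 3. The groups were separated by 0.99 between the lowest Satb1-/- and the highest WT array, and the Satb1-/- arrays spread more widely (7.17 ± 0.36, against 5.63 ± 0.16 in WT; SD, n = 3 each). The difference was 1.53 (SE 0.17, 95% interval 1.15 to 1.91), a fold of 2.89, and was called. It was 1.62 without WT array 3 and stayed called without any 1 of the 6 arrays (1.35 to 1.71). With all values below 3.63, the 25th percentile, raised to that floor, it was not called. No Lama1 value lay below the floor, so the difference stayed 1.53. Its SE, for which limma also uses the spread of other genes, was 0.22. Of the probe sets with exactly 1 gene symbol, 1 is named Lama1, so its values rest on that one.

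Lama5, the other alpha chain of the family studied here, read 6.78, 7.14 and 7.00 in Satb1-/- arrays 1-1, 1-2 and 2-1, against 6.77, 7.07 and 7.30 in WT arrays 1, 2 and 3. The groups overlapped and the difference was -0.08 (95% interval -0.41 to 0.26), with the sign turning to 0.05 without WT array 3 and to 0.02 without Satb1-/- array 1-1. The alpha chains thus shifted unequally. Relative to its WT mean, the within-array difference of Lama1 minus Lama5 was 1.44, 1.81 and 1.57 in Satb1-/- arrays 1-1, 1-2 and 2-1, against 0.21, -0.14 and -0.07 in WT arrays 1, 2 and 3.

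Lamb1, the beta chain partner of Lama1, read 8.69, 8.81 and 8.80 in Satb1-/- arrays 1-1, 1-2 and 2-1, against 8.20, 8.46 and 8.09 in WT arrays 1, 2 and 3. All Satb1-/- values were higher, by at least 0.23, but the difference of 0.52 (SE 0.12, 95% interval 0.25 to 0.78) was not called. It was 0.43 without WT array 3, and it was called (0.62) without WT array 2, the WT array with the highest Lamb1 value. Lamb2, the beta chain best known from neuromuscular junctions and kidney glomeruli, read 6.42, 6.41 and 6.48 in Satb1-/- arrays, against 6.44, 6.56 and 6.37 in WT arrays, in the same array order. The Lamb2 groups overlapped, with a difference of -0.02 (95% interval -0.25 to 0.21) that was 0.00 and positive with each array centred on its median.

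The sequences before the RefSeq starts of both beta chain genes are shown because these genes encode alternative beta chains and their values shifted unequally; the RefSeq build is GRCm38.p6, both genes are on the plus strand, and only the bases of the promoter window (250 before to 50 after a start) that lie outside the annotated gene are printed, 5′ to 3′. Capitals mark a CCAAT box (CCAAT) or a GC box (GGGCGG) on either strand; the letters TATAAA of the TATA box and those of the GATA motif, AGATAA, were searched on both strands as well. Lamb1 is at chr12:31265043-31265145 (103 bases) and Lamb2 at chr9:108479612-108479846 (235 bases).
Lamb1: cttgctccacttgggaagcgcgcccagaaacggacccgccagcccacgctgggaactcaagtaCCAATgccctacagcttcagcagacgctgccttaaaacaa
Lamb2: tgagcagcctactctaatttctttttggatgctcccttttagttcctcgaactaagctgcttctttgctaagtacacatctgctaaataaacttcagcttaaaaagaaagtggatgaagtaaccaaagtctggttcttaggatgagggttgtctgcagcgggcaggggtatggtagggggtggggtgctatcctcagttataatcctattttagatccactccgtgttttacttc
The whole Lamb1 window held 2 GC boxes and 1 CCAAT box at 63.7% G and C, and the whole Lamb2 window held none of the 4 motifs at 44.0% G and C. Of all 32851 promoter windows, 35.7% held a GC box, 37.4% a CCAAT box, 13.6% TATAAA and 11.2% AGATAA, and the median G and C content was 52.7%. No motif overlapped another in the windows of these genes. A match is a description of letters in this window.

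Lamc1, the gamma chain shared by most laminins, read 8.27, 8.85 and 8.61 in Satb1-/- arrays 1-1, 1-2 and 2-1, against 7.87, 8.47 and 8.20 in WT arrays 1, 2 and 3. Satb1-/- array 1-1 lay below WT array 2, so the groups overlapped, and the difference of 0.40 (SE 0.18, 95% interval -0.00 to 0.79) was not called. It was 0.24 without WT array 1, 0.54 without WT array 2 and 0.41 without WT array 3.

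Set against its partner chains within each array, Lama1 moved further than they did. Relative to its WT mean, Lama1 minus the mean of Lamb1 and Lamc1 was 0.91, 1.29 and 1.03 in Satb1-/- arrays 1-1, 1-2 and 2-1, against 0.12, -0.37 and 0.25 in WT arrays 1, 2 and 3. The groups did not overlap, with a mean of 1.08 ± 0.19 in Satb1-/- arrays and 0.00 ± 0.33 in WT arrays (SD, n = 3 each), a 2.11-fold change of the ratio; no test is given because Lama1 was chosen for its increase. It was 1.20 without WT array 3. By the same measure Lamb1 minus Lamb2 was 0.53 ± 0.06 in Satb1-/- arrays and 0.00 ± 0.10 in WT arrays, while Lamb1 minus Lamc1 was 0.12 ± 0.23 in Satb1-/- arrays and 0.00 ± 0.24 in WT arrays, with overlapping groups (SD, n = 3 each). These ratios show unequal change between genes and not which of them is constant.

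**Figure D2:**
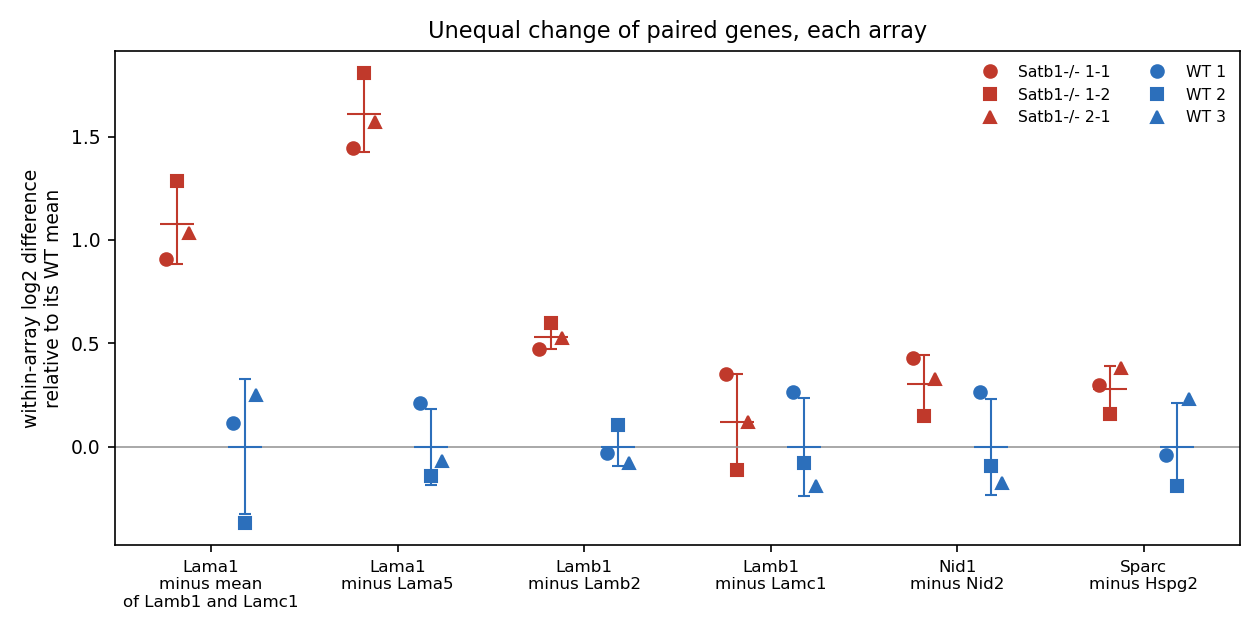
Within-array log2 difference between genes of a pair (y axis), set to 0 at its WT mean; points are arrays, Satb1-/- on the left and WT on the right of each pair, dashes are means and bars 1 SD (n = 3 each). Lama1 minus Lama5 lies between 1.44 and 1.81 in Satb1-/- arrays, Lamb1 minus Lamb2 between 0.47 and 0.60, and the Lamb1 minus Lamc1 groups overlap.

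Sparc encodes a calcium- and collagen-binding glycoprotein that is abundant in the thick basement membrane of the parietal yolk sac. It read 9.41, 9.55 and 9.47 in Satb1-/- arrays 1-1, 1-2 and 2-1, against 8.69, 8.81 and 9.03 in WT arrays 1, 2 and 3. All Satb1-/- values lay above all WT values, by at least 0.38, and the difference of 0.63 (SE 0.12, 95% interval 0.37 to 0.89, a fold of 1.55) was called. It was called without WT array 3 (0.72) but missed the threshold without WT array 1 (0.55), WT array 2 (0.62) or Satb1-/- array 1-1 (0.66), 1-2 (0.59) or 2-1 (0.63). The call was also lost with each array centred on its median (0.65), with the floor (0.63) and with Satb1-/- arrays 1-1 and 1-2 averaged (0.63). No Sparc value lay below the floor.

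The nidogens, rod-shaped proteins that link laminin to the collagen IV network, were not called. Nid1 read 8.52, 8.44 and 8.49 in Satb1-/- arrays 1-1, 1-2 and 2-1, against 7.81, 8.24 and 7.61 in WT arrays 1, 2 and 3. All Satb1-/- values were higher and lay close together (8.48 ± 0.04, against 7.89 ± 0.32 in WT; SD, n = 3 each), and the difference was 0.60 (SE 0.15, 95% interval 0.26 to 0.93). It was 0.46 without WT array 3, and it was called without WT array 2 (0.77).

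Nid2 read 7.90, 8.11 and 7.98 in Satb1-/- arrays 1-1, 1-2 and 2-1, against 7.36, 8.14 and 7.60 in WT arrays 1, 2 and 3. WT array 2 was the highest of all 6 arrays, and the difference of 0.29 (95% interval -0.10 to 0.69) was 0.12 without WT array 1, 0.51 without WT array 2 and 0.24 without WT array 3. Relative to its WT mean, Nid1 minus Nid2 was 0.30 ± 0.14 in Satb1-/- arrays and 0.00 ± 0.23 in WT arrays (SD, n = 3 each), and the groups overlapped.

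The bases before the RefSeq starts of Sparc and Nid1 are printed because both had groups that did not overlap and both starts leave the full 250 bases outside the annotated gene; capitals mark the motifs as above. Sparc is at chr11:55420081-55420330 on the minus strand and Nid1 at chr13:13437352-13437601 on the plus strand, both in GRCm38.p6.
Sparc: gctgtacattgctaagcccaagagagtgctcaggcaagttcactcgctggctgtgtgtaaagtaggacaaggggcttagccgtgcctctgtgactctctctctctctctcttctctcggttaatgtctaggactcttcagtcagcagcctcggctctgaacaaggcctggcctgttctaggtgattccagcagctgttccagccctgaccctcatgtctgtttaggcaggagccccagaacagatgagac
Nid1: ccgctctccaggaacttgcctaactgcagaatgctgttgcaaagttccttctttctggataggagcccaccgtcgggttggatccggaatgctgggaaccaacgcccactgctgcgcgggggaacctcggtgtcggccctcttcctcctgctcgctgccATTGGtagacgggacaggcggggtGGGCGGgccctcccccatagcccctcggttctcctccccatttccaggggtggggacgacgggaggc
The Sparc window held none of the 4 motifs, and the Nid1 window held 1 GC box and 1 CCAAT box. G and C made up 54.0% of the 250 bases of Sparc and 64.4% of those of Nid1. Among the 10 genes, RefSeq windows were matched by gene ID for 7, and of these Lama5, Lamb1, Nid1, Hspg2 and Dag1 held a GC box while none held TATAAA or AGATAA. Lama1, Lamc1 and Nid2 are named only.

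Hspg2 encodes perlecan, a large heparan sulfate proteoglycan that binds laminin, nidogen and growth factors. It read 7.55, 7.84 and 7.54 in Satb1-/- arrays 1-1, 1-2 and 2-1, against 7.18, 7.45 and 7.25 in WT arrays 1, 2 and 3. All Satb1-/- values lay above all WT values, by a margin of only 0.08, and the difference of 0.35 (SE 0.12, 95% interval 0.07 to 0.63) was not called. It was 0.33 without WT array 3.

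Dag1 encodes dystroglycan, the laminin receptor that connects the basement membrane to dystrophin or utrophin inside the cell. It read 7.58, 7.82 and 7.79 in Satb1-/- arrays 1-1, 1-2 and 2-1, against 7.35, 7.54 and 7.83 in WT arrays 1, 2 and 3. WT array 3 was the highest of all, and the difference of 0.16 (95% interval -0.15 to 0.46) was 0.28 without that array, 0.045 without WT array 1 and 0.11 without Satb1-/- array 1-2.

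**Figure D3:**
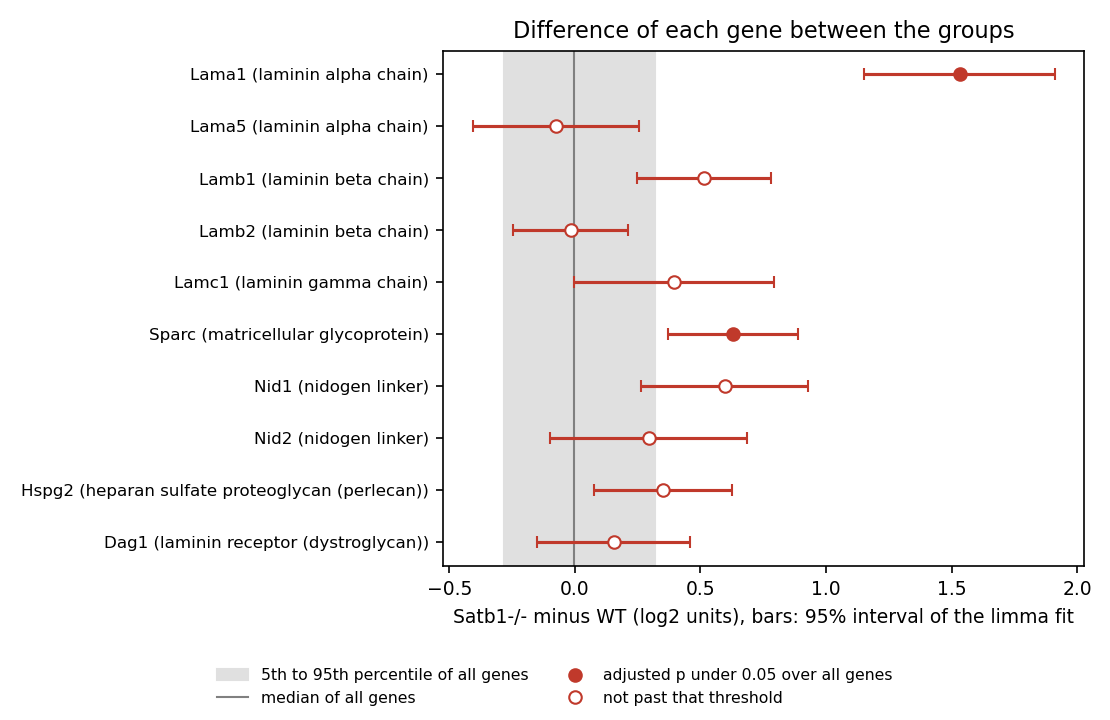
Difference between Satb1-/- and WT in log2 units (x axis) for each of the 10 genes (y axis), with the 95% interval of the limma fit over 3 arrays a group; filled points were called and the grey band spans the 5th to 95th percentile of all genes (-0.28 to 0.32). Lama1 at 1.53 and Sparc at 0.63 are the filled points, and Lama5 and Lamb2 lie near 0.

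Within the groups, several of the 10 genes were highest or lowest in the same array. Among Satb1-/- arrays, 8 of the 10 genes were highest in array 1-2 and 7 were lowest in array 1-1. No share of all genes was computed for these counts or for those in WT arrays. Array 1-2 also had the highest mean deviation for other lists, such as ES cell markers (0.18) and matrix folding and secretion (0.10). Another Satb1-/- array was highest for the feeder, endoderm, protease, dystroglycan enzyme and SPARC family lists. Among WT arrays, 6 genes (Lamb1, Lamb2, Lamc1, Nid1, Nid2 and Hspg2) were highest in array 2, the other 4 (Lama1, Lama5, Sparc and Dag1) were highest in array 3, and 6 were lowest in array 1. The SD was smaller among Satb1-/- arrays in 8 of the 10 genes, with a median SD of 0.12 in Satb1-/- arrays and 0.22 in WT arrays (n = 3 each). Over all genes the median SD was 0.11 in Satb1-/- arrays and 0.16 in WT arrays. Lama1 and Hspg2 had the larger SD in Satb1-/- arrays.

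The 10 genes lie on 9 chromosomes, and Lamb2 and Dag1 share chromosome 9. For each gene the 20 nearest genes brighter than the median gene, 10 on each side in RefSeq order, were set beside it. The neighbours of Lama1 on chromosome 17 had a median difference of 0.10 (range -0.20 to 0.49), none of them was called, and none reached the value of Lama1. The neighbours of Sparc on chromosome 11 had a median of 0.05 (range -0.31 to 0.58), with 1 called higher and none at or above Sparc. For the other 8 genes the neighbour medians lay between -0.03 (Nid1) and 0.16 (Lamb2). The neighbours of Lamc1 on chromosome 1 reached 1.08, with 2 called higher and 2 at or above Lamc1, and none was called beside the other 7 genes.

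Genes whose 6 values followed those of Lama1 most closely were found by the root mean square distance between deviations from each gene's own mean. The 5 nearest of 19937 genes were Prmt8 (0.12 log2 units), Khdc3 (0.19), 1700024J04Rik (0.20), Dera (0.21) and Mical3 (0.23). Prmt8, Dera and Mical3 lie on chromosome 6 and Khdc3 on chromosome 9. Of the family, Sparc came nearest (0.48, rank 161), then Lamb1 (0.57, rank 343), Nid1 (0.59, rank 403) and Lamc1 (0.61, rank 500), while Lamb2 and Lama5 ranked 10227 and 10412. The measure uses the size of the change, so a large difference between the groups sets most of it.

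None of the other laminin chains measured was called. Of 5 measured genes limma called 0 (1 lower and 0 higher at an unadjusted p under 0.05), with a median difference of 0.04. Of these 5 genes, 3 were dimmer than the median gene. Lamc3, a gamma chain of several adult tissues, read 5.20, 5.40 and 5.52 in Satb1-/- arrays, against 6.15, 5.81 and 5.63 in WT arrays, a difference of -0.49 (limma adjusted p = 0.184) with all Satb1-/- values lower. The remaining chains were Lama2 (difference 0.04, limma adjusted p = 0.956), Lama3 of epithelial laminin (0.19, adjusted p = 0.587), Lama4 of vessels (0.25, adjusted p = 0.701) and Lamb3 of epithelial laminin (-0.16, adjusted p = 0.725). Lama3 had all Satb1-/- values above all WT values. Of the 5 genes, 1 thus lay above and 1 below without overlap, which held for 8.18% and 6.97% of all genes.

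Other components of basement membranes, from collagens to fibulins, had differences on both sides of 0. Of 23 measured genes limma called 0 (3 higher and 2 lower at an unadjusted p under 0.05), with a median of 0.01. Of the 23, 10 were dimmer than the median gene, as none of the 10 genes studied here was. Fbln2, the fibulin gene with the brightest probe set of the list, read 8.58, 8.57 and 8.58 in Satb1-/- arrays, against 8.15, 8.42 and 8.16 in WT arrays (0.33, limma adjusted p = 0.253). Of the collagen IV genes, named after their values were seen, Col4a1 had a difference of -0.43 (limma adjusted p = 0.195) and Col4a2 one of -0.18 (adjusted p = 0.650). All Satb1-/- values lay below all WT values in both. The groups overlapped for Col4a3 (-0.04), Col4a4 (-0.01), Col4a5 (-0.12) and Col4a6 (0.01). Over the 23 genes, Satb1-/- arrays lay below without overlap in 3 and above in 2, which held for 6.97% and 8.18% of all genes.

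Among laminin receptors, 1 of 12 genes was called higher (0.923% of all genes), Itga1, which encodes the alpha subunit of a collagen- and laminin-binding integrin. Its mean level of 4.69 was below that of the median gene, 5.05. It read 5.11, 4.97 and 4.88 in Satb1-/- arrays 1-1, 1-2 and 2-1, against 4.34, 4.46 and 4.40 in WT arrays 1, 2 and 3, a difference of 0.59 (SE 0.11, limma adjusted p = 0.0264). The call was lost without WT array 1 (0.56) or Satb1-/- array 1-1 (0.52), 1-2 (0.59) or 2-1 (0.64), with each array centred (0.60), with the floor (0.59) and with Satb1-/- arrays 1-1 and 1-2 averaged (0.56). At an unadjusted p under 0.05 by limma, 2 of the 12 were higher and 1 lower, where 5.92% and 4.55% of all genes were. The median of the list was -0.02, and Rpsa, a ribosomal protein also described as a laminin receptor, differed by -0.05 (limma adjusted p = 0.960).

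The enzymes that build the laminin-binding sugar of dystroglycan showed no called gene among 13 measured (0 at an unadjusted p under 0.05 by limma), with a median of -0.00 and Dpm1, a dolichol-phosphate mannose synthase subunit, at -0.04 (limma adjusted p = 0.974). The dystrophin complex, which anchors dystroglycan inside the cell, had 0 of 11 genes called by limma (2 lower and 0 higher at an unadjusted p under 0.05), a median of -0.15 and Utrn, the utrophin gene, at -0.24 (limma adjusted p = 0.662). Relatives of Sparc (the SPARC family without Sparc itself) had 0 of 7 genes called by limma (1 lower and 0 higher at an unadjusted p under 0.05), a median of -0.00 and Fstl1 at 0.19 (limma adjusted p = 0.658). Helpers of matrix protein folding and secretion had 0 of 15 called by limma (1 lower and 0 higher at an unadjusted p under 0.05), a median of 0.07 and the chaperone gene Canx at -0.05 (limma adjusted p = 0.953). Dimmer than the median gene were 7 of the 11 dystrophin complex genes and 4 of the 7 relatives of Sparc. The same held for 2 of the 13 enzymes and 0 of the 15 helpers.

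Among proteases and inhibitors that remodel matrix, 1 of 13 genes was called higher (0.923% of all genes), Htra1, which encodes a secreted serine protease. It read 6.88, 7.26 and 7.12 in Satb1-/- arrays 1-1, 1-2 and 2-1, against 5.94, 6.35 and 6.24 in WT arrays 1, 2 and 3, a difference of 0.91 (SE 0.14, limma adjusted p = 0.0107). The call was lost without Satb1-/- array 1-2 (0.82) or 2-1 (0.90) and with the floor (0.91). At an unadjusted p under 0.05 by limma, 4 of the 13 were higher and 0 lower, where 5.92% and 4.55% of all genes were. In 3 genes all Satb1-/- values lay above all WT values (8.18% of all genes), and in 0 below (6.97%). The median of the list was 0.11, and Ctsl, the cathepsin L gene, differed by 0.37 (limma adjusted p = 0.354).

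**Figure D4:**
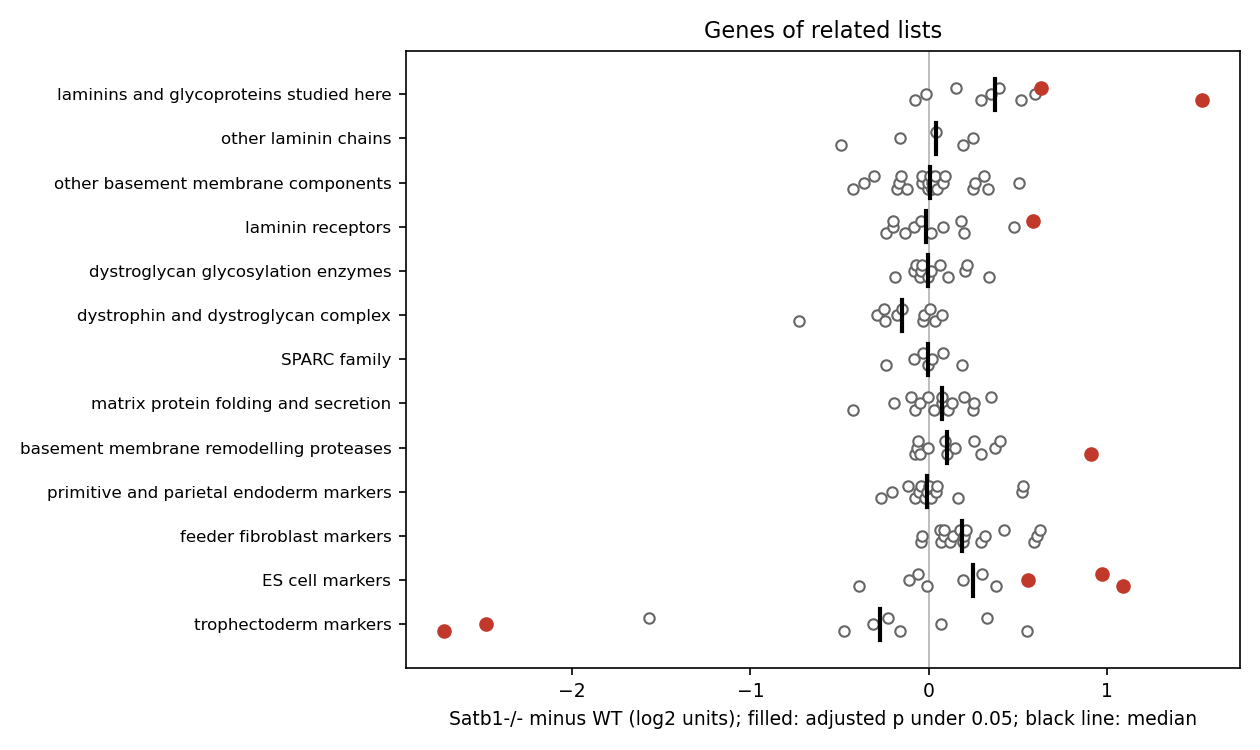
Difference between Satb1-/- and WT in log2 units (x axis) for the 10 genes studied here and for 12 related lists (y axis); each point is a gene, filled points were called by limma and black lines are medians. The 10 genes have a median of 0.37, against 0.25 for ES cell markers, 0.18 for feeder fibroblast markers, 0.01 for other basement membrane components and -0.01 for primitive and parietal endoderm markers. The lists differ in brightness: all 10 genes were brighter than the median gene. Dimmer than it were 10 of the 23 other components and 8 of the 15 endoderm markers.

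Marker genes of the cell types that make these proteins were set beside the family. Primitive and parietal endoderm, the extraembryonic layer that secretes Lama1 and Sparc in the embryo, had 0 of 15 measured markers called by limma (2 higher and 0 lower at an unadjusted p under 0.05) and a median of -0.01. Its summed linear signal was 507 to 583 in Satb1-/- arrays and 461 to 519 in WT arrays, and 8 of the 15 markers were dimmer than the median gene. Its defining regulators, named after their values were seen, were Gata4 (-0.27), Gata6 (0.05) and Sox17 (-0.08), with overlapping groups in each. Of the other markers, Thbd (0.52, limma adjusted p = 0.143) and Fst (0.17, adjusted p = 0.692), also named after their values were seen, had all Satb1-/- values above all WT values. Pdgfra, the brightest probe set of the list, differed by 0.53 (limma adjusted p = 0.241).

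Of the 18 measured markers of feeder fibroblasts, 16 had a difference above 0, and Vim, the vimentin gene with the brightest probe set of the list, differed by 0.20 (limma adjusted p = 0.725). Their summed linear signal was 4652 to 5427 in Satb1-/- arrays and 4081 to 4687 in WT arrays. Their mean deviation was 0.23, -0.04 and 0.15 in Satb1-/- arrays 1-1, 1-2 and 2-1, and -0.13, 0.01 and -0.22 in WT arrays 1, 2 and 3. Satb1-/- array 1-2 had the lowest feeder level of its group and the highest values of 8 of the 10 genes, and WT array 2 had the highest feeder level of its group and the highest values of 6 of the 10. These are orders among 3 arrays a group. The part of feeder cells in the values of the family was not tested.

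The ES cell label was checked against its markers, and all 10 were brighter than the median gene. Of these, 3 were called higher (Nanog, Klf4 and Esrrb) and 0 lower, where 0.923% and 0.476% of all genes were. The median was 0.25, and Tdgf1, the brightest probe set, was at -0.06 (limma adjusted p = 0.927). At an unadjusted p under 0.05 by limma, 4 were higher and 1 lower, where 5.92% and 4.55% of all genes were. The 1 lower was Pou5f1, the Oct4 gene that carries the reporter, named after its values were seen, with a difference of -0.39 (limma adjusted p = 0.309) and all Satb1-/- values below all WT values. Of 10 trophectoderm markers 2 were called lower (Krt8 and Krt18) and 0 higher, against the same shares of all genes. At an unadjusted p under 0.05 by limma, 2 were higher and 4 lower. The median was -0.27, and Tfap2c, the brightest probe set by its mean, was at 0.33 (limma adjusted p = 0.246). The summed linear signal of that list was 602 to 693 in Satb1-/- arrays and 1128 to 2553 in WT arrays, highest in WT array 3. Such a sum is set mostly by the brightest genes, which in that array were Krt8 (10.09) and Krt18 (9.66). All Satb1-/- values lay below all WT values in 3 genes (6.97% of all genes) and above them in 2 (8.18%). The 3 were Krt8 (-2.72), Krt18 (-2.48) and Krt7 (-1.57), and the 2 were Eomes (0.55) and Tfap2c. Krt7 and Eomes were named after their values were seen. The part of this list in the differences of the family was not tested.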

How the data were processed

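RNA of 3 Satb1-/- and 3 WT samples was labelled with biotin and hybridised to 1-colour arrays. The deposited table holds log2 expression values that the authors made with RMA, per the submitters' processing notes; version, settings and genome build: not given in the sources used here. Of 35557 probe sets, 21789 had exactly 1 gene symbol in the platform annotation, 1621 several and 12147 none. The brightest probe set was kept per gene, which left 19938 genes. The 6 arrays were fitted by group alone in limma 3.58.1 under R 4.3.3 (lmFit, then eBayes), without covariates or a filter on dim genes, with Benjamini-Hochberg adjustment over all genes and a threshold of 0.05; every adjusted p is from limma. The steps were tested on 5 simulated comparisons of 3 against 3 arrays, with 200 changed genes planted among 19938. At the threshold, 23.0% of planted differences of 0.5 log2 units were called, 72.5% of those of 1 and 99.1% of those of 2. Of the calls, 3.57% were false. A gene that is not called is thus not shown to be unchanged. Members and lists (12 lists, 152 of 161 entries measured) were chosen with earlier results of these data known. The text names all 10 genes, each laminin chain measured, the called genes (at most 4) and the brightest probe set of each list, the 5 genes nearest to Lama1, and Satb1; exceptions are marked. Promoter sequences are from RefSeq (GRCm38.p6).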

Additional observations from a re-analysis of the deposited data

How the results depend on the processing

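The count of called genes among the 10 (2, Lama1 and Sparc) was 1 with each array centred on its median or with Satb1-/- arrays 1-1 and 1-2 averaged as 1 sample (Lama1 in both), and 0 with a floor at the 25th percentile of all values, where 5 had an unadjusted p under 0.05 in limma. Leaving out 1 array gave 1 to 3. The share of all genes called under each alternative was not computed, so these counts do not separate a change in the 10 genes from one in all genes. The difference of Lama1 lay between 1.35 and 1.71 over 14 alternatives. It was called in 13, the exception being the floor (1.53, limma adjusted p = 0.135). Otherwise its limma adjusted p reached no more than 0.0181. No value of the 10 genes lay below the floor. It left their differences unchanged and acted on their calls only through the fit to all genes. Lama1 minus the mean of its partners lay between 0.89 and 1.24. Near-zero differences changed sign: leaving out 1 array gave -0.21 to 0.051 for Lama5 and -0.060 to 0.035 for Lamb2, and Lamb2 was 0.0017 with each array centred. Sparc was called in 6 of 14 alternatives (0.55 to 0.72), Lamb1 and Nid1 in 1 each, and Lamc1, Nid2, Hspg2 and Dag1 in none. Itga1 was called in 6 of 13 alternatives and Htra1 in 11 of 14, both added after seeing the data. Being dimmer than the median gene, Itga1 was absent from the fit to genes above the median level. The causes were not tested. No paired analysis was possible because the numbers of the Satb1-/- clones (1-1, 1-2, 2-1) are not those of the WT arrays (1, 2, 3). The number of arrays limits the precision, with an SE of 0.10 to 0.18 log2 units for the 10 genes.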
